A study of Homo sapiens with 18 samples.

Results

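Input RNA of MeRIP-seq was compared between LoVo cells with METTL3 WT (3 libraries) and LoVo cells with METTL3 K513R (3 libraries), which makes 6 of the 18 libraries of the series. The 6 members are the libraries labelled as MeRIP samples of these genotypes and not as IP, so no measured value took part in choosing them. LoVo is an established colorectal cancer cell line, and in METTL3 K513R a lysine of METTL3 that the study examines as a methylation site is replaced by arginine. For the MeRIP libraries polyadenylated RNA was captured on beads, fragmented with zinc chloride and split. The smaller portion was kept as input and is a measure of RNA level before any antibody was used. The remaining libraries of the series are the matching m6A pull-downs, which were not used here, and 6 RNA-seq libraries of RNA depleted of rRNA, which served as a second measure of the same genotypes. The labels name no treatment, time or clone, do not say whether K513R replaced the endogenous allele or was added back, and do not say whether the numbered libraries came from separate cultures. The p-values therefore measure the spread between libraries, which may be technical.

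N6-methyladenosine (m6A) is written on nuclear RNA by a complex in which METTL3 is catalytic, METTL14 holds the substrate and WTAP anchors the pair, and reader proteins of the YTH family tie the mark to decay, export and translation of the message. Double-stranded RNA in the cytoplasm is sensed by RIG-I and MDA5 (gene IFIH1), which signal through MAVS to interferon genes, and interferon receptors then activate a transcription factor complex that includes IRF9. That complex binds the interferon-stimulated response element (ISRE) in front of a large set of interferon-stimulated genes, most of which code for antiviral proteins.

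The deposited input counts cover m6A peaks only, so a gene was measured where at least 1 deposited peak was assigned to it. A peak over exons of several genes on its strand was assigned only to the gene with the most overlapping bases. Counts were summed per gene over 27801 peaks: all 24302 peaks of the WT list and the 3499 of 15406 K513R peaks that overlapped no WT peak on the same strand. This gave 10787 genes, of which 7945 had enough counts to be tested and 2842 did not. The libraries held 2904563 to 3596567 such counts in WT and 1548541 to 2821405 in K513R, a difference in depth that runs with genotype. K513R replicate 1 lay nearer to WT than the other K513R libraries. On the first principal component (56.6% of the variance) it lay at 10.7, against 30.4 and 32.8 for replicates 2 and 3 and -30.8 to -21.4 for WT. The second component (18.5%) set replicates 2 and 3 apart, at -24.5 and 26.2, with replicate 1 at -4.48. Over 2599 genes called without replicate 1, its median position was 0.593, where 0 is the WT mean and 1 the mean of replicates 2 and 3. These genes were picked with replicates 2 and 3, which favours a position below 1 for a library left out. Neither replicate 2 nor replicate 3 was placed in that way. Counts are without regard to strand: of 89 pairs of peaks that covered each other on opposite strands by at least 90%, 86 had counts within 1.5-fold. Levels below are CPM, gene counts scaled to a common library size with TMM factors, and ± is the SD over 3 libraries for a level and the SE of the model for a log2 fold change.

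Of the defining colon epithelial markers, 6 of 22 had an assigned peak, among them EPCAM, CDH1, KRT8, KRT18 and CDX2. Their summed level was 823 to 882 CPM in WT and 776 to 961 CPM in K513R. Of 25 markers of fibroblasts, endothelium and blood cells 6 had an assigned peak, with a summed level of 26.4 to 32.8 CPM in WT and 27.9 to 46.1 CPM in K513R. Of the second panel CD68 alone was tested (log2 0.52, edgeR adjusted p = 0.0981). It passed without K513R replicate 2 (0.77, edgeR adjusted p = 0.0115), in shared peaks only (0.75, 0.0261) and with library size only (0.63, 0.0456). With peaks taken from the K513R list first, CD68 was at -0.40 (edgeR adjusted p = 0.568). Of the counts given to CD68, 100% lay in peaks shared with the gene ENSG00000264772 on the same strand, and the reads of these genes cannot be told apart. Tested epithelial markers were KRT18 (log2 -0.15), KRT8 (0.20) and CDX2 (0.33), which did not pass, CDH1 (0.63, edgeR adjusted p = 0.014) and EPCAM (-0.36, edgeR adjusted p = 0.033). The call of CDH1 ended without WT replicate 2 or 3 or K513R replicate 2 (edgeR adjusted p up to 0.0779), and that of EPCAM ended with any library but K513R replicate 1 left out (up to 0.11). As in any bulk sample, fewer cells of a type and less RNA per cell cannot be told apart.

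The input libraries differed between genotypes at 2105 of 7945 genes (26.5%, edgeR quasi-likelihood test, adjusted p under 0.05), with 1065 genes higher in K513R (13.4%) and 1040 lower (13.1%). The rises and falls were about equally many but not equally large. Among called genes, 294 rises and 143 falls reached a log2 change of 1, 40 rises and 6 falls reached 2, and 13 rises and 1 fall reached 3. Groups did not overlap at 1684 genes with every K513R library above WT (21.2%) and 1619 with every one below (20.4%). The median over all tested genes was 0.02, and the called rises and falls had medians of 0.74 and -0.62. Genes that were lower had a higher typical level than genes that were higher, with medians of 107 and 47.5 CPM. Without scaling factors (library size only) the median of all genes moved to 0.13 and the split became 1446 higher and 725 lower. The counts were smaller with 1 WT library left out (674 higher and 740 lower without replicate 1, 665 and 663 without replicate 2, 697 and 753 without replicate 3) and larger without K513R replicate 1 (1247 and 1392).

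**Figure D1:**
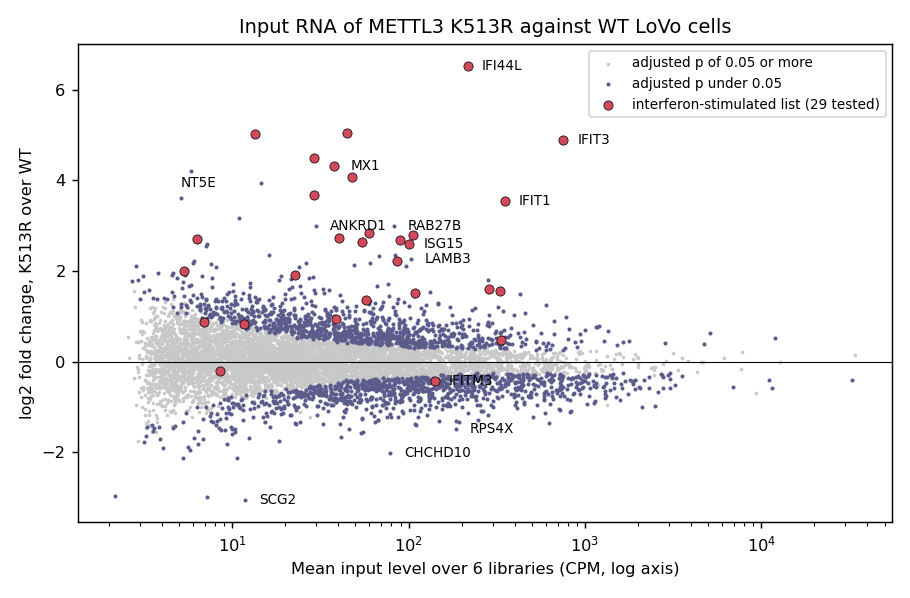
Mean level over the 6 input libraries (CPM, log axis) against the log2 fold change of K513R over WT for all 7945 tested genes, with genes past the threshold dark and the 29 tested genes of the interferon-stimulated list in red. The red points lie mostly far above 0, with IFI44L at 6.53, while no gene with a mean above 1000 CPM reaches a change of that size.

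Interferon-stimulated genes were 18 of the 40 genes that rose by at least 2 on the log2 scale and 9 of the 13 that rose by at least 3. Of 29 tested members of that list 25 rose and 0 fell, with a median log2 fold change of 2.63, beside 13.4% of all tested genes that rose and a median of 0.02. The list was chosen with results from these cells already known, so its direction is not independent evidence. Of the 20 rises with the smallest adjusted p, 15 were on it. Over all alternatives 21 to 26 members rose, and without K513R replicate 1 the count was 23 higher and 1 lower.

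IFI44L, an interferon-induced gene on chromosome 1 (chr1:78619902-78646145, GRCh38), was at 5.70, 4.43 and 3.79 CPM in the WT inputs and at 517, 399 and 373 CPM in the K513R inputs. All 3 K513R libraries were far above all 3 WT libraries, and K513R replicate 1 was the highest. Means were 4.64 ± 0.969 and 429.7 ± 76.8 CPM (log2 6.53 ± 0.19, edgeR adjusted p = 1.17e-13). Its neighbour IFI44 (chr1:78649796-78664078) was at 2.21, 1.11 and 4.08 CPM in WT and 71.9, 84.4 and 104 CPM in K513R (log2 5.04 ± 0.27, edgeR adjusted p = 1.02e-09). The groups did not overlap for either gene.

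IFIT3, which encodes an antiviral protein with tetratricopeptide repeats, had the highest level among the large rises (chr10:89327307-89377473). It was at 50.0, 41.4 and 54.2 CPM in WT and at 1257, 1486 and 1627 CPM in K513R (log2 4.90 ± 0.13, edgeR adjusted p = 9.06e-14). Its paralog IFIT1, which binds RNA with an unmethylated cap, was at 60.7, 46.2 and 58.0 CPM in WT and at 619, 654 and 663 CPM in K513R (log2 3.55 ± 0.11, edgeR adjusted p = 4.96e-13). For both genes the WT libraries were low, the K513R libraries were high and the groups did not overlap. IFIT2 rose from 24.1 ± 1.97 to 154 ± 6.46 CPM (log2 2.68) and IFIT5 rose by 1.52 on the log2 scale. Tested peak by peak, 2868 of 14415 peaks differed (19.9%). In IFIT3 all 4 tested peaks rose, by 2.37 to 5.29, the most abundant one (chr10:89339964-89340505) from a mean of 23.8 to 937 CPM.

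MX1, a dynamin-like GTPase that blocks viruses, was at 5.70, 2.59 and 2.33 CPM in WT and 69.8, 82.8 and 62.4 CPM in K513R (log2 4.32 ± 0.26, edgeR adjusted p = 2.96e-09). Peaks of the WT list alone held 98.6% of MX1 counts. ISG15, the ubiquitin-like modifier, was at 31.6, 22.9 and 30.6 CPM in WT and 151, 172 and 197 CPM in K513R (log2 2.59 ± 0.15, edgeR adjusted p = 2.36e-09). SAMD9L, a restriction factor, was at 4.75, 4.80 and 3.21 CPM in WT and 56.8, 45.5 and 59.4 CPM in K513R (log2 3.67 ± 0.23, edgeR adjusted p = 7.19e-09). None of these 3 genes had overlapping groups, and K513R replicate 1 was within or near the range of the other K513R libraries. OASL, of the oligoadenylate synthetase family, rose from 0.715 ± 0.644 to 26.1 ± 4.35 CPM (log2 5.02 ± 0.41, edgeR adjusted p = 1.83e-07).

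Some of the large rises came from regions that 2 genes share. XAF1, a pro-apoptotic interferon target, was at 6.33, 7.02 and 2.92 CPM in WT and 89.2, 93.6 and 85.8 CPM in K513R (log2 4.07 ± 0.22, edgeR adjusted p = 9.84e-10), and 100% of its counts lay in peaks over exons of a gene on the other strand. IFI6, a mitochondrial interferon-induced protein, was at 2.53, 3.33 and 1.75 CPM in WT and 83.8, 42.2 and 41.4 CPM in K513R (log2 4.50 ± 0.35, edgeR adjusted p = 2.58e-07), and 100% of its counts lay in a peak shared with the noncoding gene LINC02574 on the same strand. Reads of such partners cannot be told apart here. Below, counts said to lie over opposite-strand exons are all counts of peaks that touch such an exon, however little they overlap it. For IFI44L, IFI44, IFIT3, IFIT1, MX1, ISG15, SAMD9L and OASL 0% of counts lay in peaks of either kind.

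**Figure D2:**
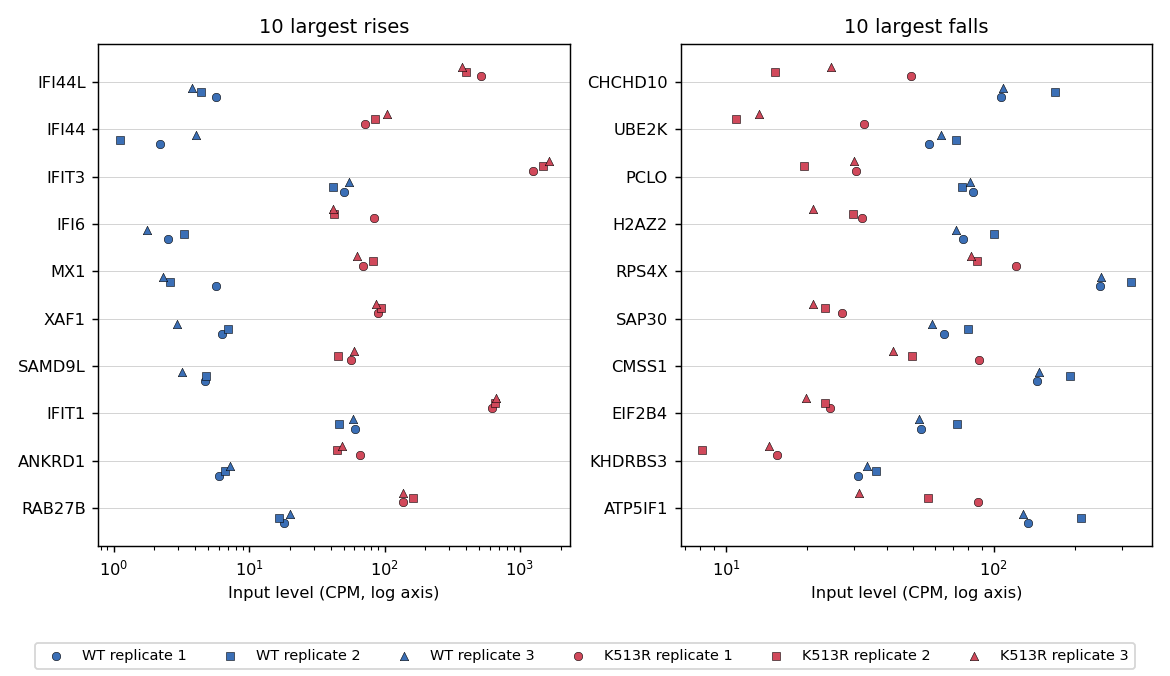
Level in each input library (CPM, log axis) of the 10 largest rises (left) and 10 largest falls (right) among called genes that averaged 20 CPM or more and had no overlap between groups, WT in blue and K513R in red. For IFI44L the WT libraries lie at 3.79 to 5.70 CPM and the K513R libraries at 373 to 517 CPM, and for CHCHD10 K513R replicate 1 (48.9 CPM) lies nearer to WT than replicates 2 and 3 (15.2 and 24.6 CPM).

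Promoters of 5 interferon-stimulated genes that rose, chosen after the search, are shown to set 4 with matches to the ISRE beside 1 without. Each is the 250 bases before 1 RefSeq start of the gene (GRCh38.p14), 5′ to 3′ on the gene's strand. In all 5 genes that start lies inside the gene span used for counting, and other annotated starts were not searched. Capitals mark each match, which is GAAA repeated after any 2 bases, or TTTC repeated likewise for the other strand. The windows are IFI44L chr1:78620198-78620447 (+ strand), IFIT3 chr10:89327747-89327996 (+), IFIT1 chr10:89392373-89392622 (+), ISG15 chr1:1013247-1013496 (+) and MX1 chr21:41420308-41420557 (+).
IFI44L: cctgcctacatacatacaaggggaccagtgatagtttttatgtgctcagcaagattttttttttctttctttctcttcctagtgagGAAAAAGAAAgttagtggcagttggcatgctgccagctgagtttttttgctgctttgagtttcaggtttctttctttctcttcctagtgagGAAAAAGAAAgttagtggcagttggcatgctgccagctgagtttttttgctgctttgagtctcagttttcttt
IFIT3: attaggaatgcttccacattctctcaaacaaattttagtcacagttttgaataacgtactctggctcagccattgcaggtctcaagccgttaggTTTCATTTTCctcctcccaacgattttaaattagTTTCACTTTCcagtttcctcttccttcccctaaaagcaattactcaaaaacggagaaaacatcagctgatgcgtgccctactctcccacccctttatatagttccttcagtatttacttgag
IFIT1: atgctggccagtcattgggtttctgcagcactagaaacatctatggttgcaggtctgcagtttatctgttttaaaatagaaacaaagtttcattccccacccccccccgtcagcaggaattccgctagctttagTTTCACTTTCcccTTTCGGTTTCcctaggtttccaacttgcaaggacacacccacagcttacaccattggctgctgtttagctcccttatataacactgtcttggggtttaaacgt
ISG15: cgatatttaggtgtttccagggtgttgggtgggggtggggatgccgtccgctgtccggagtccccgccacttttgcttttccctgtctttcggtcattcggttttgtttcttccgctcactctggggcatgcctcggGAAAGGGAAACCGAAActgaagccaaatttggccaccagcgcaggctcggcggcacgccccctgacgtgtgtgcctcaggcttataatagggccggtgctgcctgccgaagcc
MX1: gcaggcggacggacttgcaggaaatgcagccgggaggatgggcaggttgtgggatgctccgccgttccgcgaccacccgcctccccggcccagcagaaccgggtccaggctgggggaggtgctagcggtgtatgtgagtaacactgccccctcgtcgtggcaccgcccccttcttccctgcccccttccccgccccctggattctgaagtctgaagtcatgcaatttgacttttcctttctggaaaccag
In IFI44L the matches began 164 and 73 bases before the start, in IFIT3 156 and 122, and in IFIT1 116 and 103. In ISG15 they began at 113 and 107 and overlapped each other. MX1 had 0 matches in this window.

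The match was present in 3.07% of 27305 promoters of the same length and in 2.2% of the 6352 tested genes with a promoter in the table. Over all called genes it was near that share, in 29 of 815 promoters of rises (3.56%) and 22 of 864 of falls (2.55%). Among genes that rose by at least 2 on the log2 scale 30 of 40 had a promoter in the table, and 11 of these (36.7%) held a match. On the interferon-stimulated list 17 of 25 members with a promoter held one (68%), and so did 14 of the 22 that rose. The 3 members with a promoter in the table that did not pass, IFITM1, IFITM3 and PARP12, held a match too. RAB27B, LAMB3, XAF1 and SAMD9L rose and held none. For 4 other motifs searched on both strands, NF-kB (GGGA and TTCC with any 2 bases between), AP-1 (TGANTCA), E2F (TTTCCCGC) and SREBP (TCACNCCAC), matches were in 2, 2, 3 and 1 of the 30 promoters (6.67%, 6.67%, 10% and 3.33%), beside 1.29%, 3.53%, 2.46% and 0.803% of the 6352 tested genes. A match describes letters in a window and is not a site or a cause.

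The other rises on the list covered ADP-ribosylation enzymes, helicases and signalling genes. The poly(ADP-ribose) polymerase family member PARP9 and its partner ubiquitin ligase DTX3L, which lie head to head on chromosome 3, rose by 2.78 and 2.22 on the log2 scale, and PARP14 rose by 1.56. DDX60 (2.73), DDX60L (1.92), HERC6 (2.63), SAMD9 (2.83), LGALS3BP (1.61), OAS3 (2.00), BST2 (0.95) and SP110 (0.82) rose as well. Peaks of the K513R list alone held 87.8% of DDX60 counts. IRF9, a DNA-binding subunit of the interferon-activated complex, rose by 2.71, with 100% of its counts in a peak shared with another gene. Members that did not pass were IFITM1 (log2 0.49), IFITM2 (-0.20), IFITM3 (-0.42) and PARP12 (0.89). IFITM1 was at 246 to 321 CPM in WT and at 612, 314 and 241 CPM in K513R, so the groups overlapped and K513R replicate 1 was the highest.

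No peak was assigned to the interferon genes IFNB1 and IFNL1, the chemokine CXCL10 or the transcription factor IRF7, so they were not measured. Neither were B2M, HLA-B, HLA-C and TAP1, and a peak over such a gene may have been assigned to another gene. Of the double-stranded RNA sensing list 7 of 15 members rose (46.7%, beside 13.4% of all tested genes) and 1 fell (6.67%, beside 13.1%), with a median of 0.33. The sensor gene IFIH1 was at 31.0, 34.7 and 42.3 CPM in WT and 131, 166 and 173 CPM in K513R (log2 2.11 ± 0.15, edgeR adjusted p = 3.11e-08), with no overlap. The antiviral RNA-binding protein ZC3HAV1 rose by 1.54, the adaptor TICAM1 by 0.92, the ligase TRAF6 by 1.00, the editing enzyme ADAR by 0.80, the kinase EIF2AK2 (PKR) by 0.69 and TRIM25 by 0.46. The helicase DDX3X fell by 0.38 on the log2 scale. In shared peaks only DDX3X was at -0.055 (edgeR adjusted p = 0.825), and its call also ended without WT replicate 3 (0.0767) and with library size only (0.0523). MAVS (0.18), TRAF3 (0.31), IRF3 (0.33), CGAS (-0.07) and TBK1 (-0.31) did not pass. The count of rises was 5 without WT replicate 2, 8 without K513R replicate 1 and 10 with library size only.

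Of 9 tested antigen presentation genes 2 rose (22.2%, beside 13.4% of all tested genes) and 1 fell (11.1%, beside 13.1%), with a median of 0.25. CALR, a chaperone of the peptide-loading complex (log2 0.38), and CIITA, the transactivator of MHC class II genes (0.62), rose, but neither call held with WT replicate 1 left out (edgeR adjusted p up to 0.115 and 0.07 with 1 library left out), and all their counts lay over exons of the opposite strand. PDIA3, a disulfide isomerase of the same complex, fell by 0.68 on the log2 scale. In shared peaks only it was at 0.21 (edgeR adjusted p = 0.256). Of the chemokine and cytokine list only IL32 was tested (log2 -0.01). On the checkpoint and NK ligand list 3 of 9 rose (33.3%) and 0 fell. NT5E, the CD73 enzyme that makes adenosine, was at 1.27, 0.37 and 3.21 CPM in WT and 20.1, 26 and 36.0 CPM in K513R (log2 3.94 ± 0.41, edgeR adjusted p = 4.21e-06), with no overlap. The NT5E value rests on 1 peak of the WT list alone, with 4, 1 and 11 counts in the WT libraries. NECTIN2 (0.72) and CD276 (0.76) rose less, the call of CD276 ended without WT replicate 1, WT replicate 2 or K513R replicate 3 (edgeR adjusted p up to 0.112), and 98.9% of the NECTIN2 counts lay over opposite-strand exons. With peaks taken from the K513R list first, NECTIN2 was at 0.43 (edgeR adjusted p = 0.306).

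**Figure D3:**
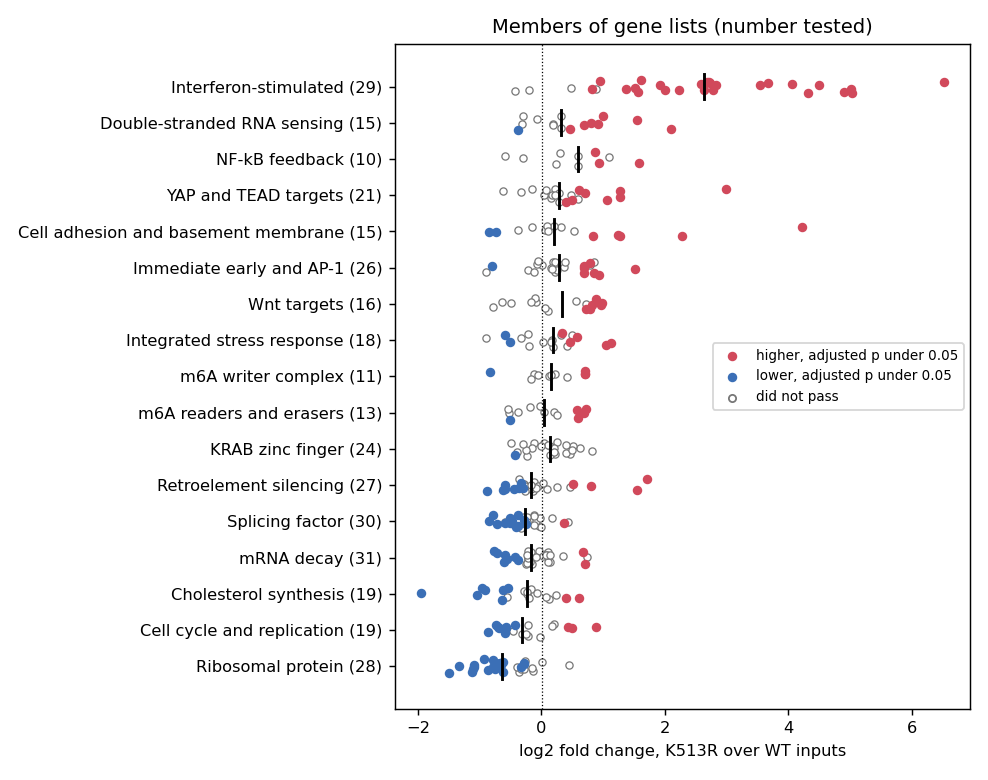
log2 fold change of K513R over WT inputs for the tested members of 17 gene lists, with rises in red, falls in blue, members that did not pass open, the median of each list as a bar and the median of all tested genes (0.02) dotted. The interferon-stimulated list has its median at 2.63, and the ribosomal protein list at -0.64.

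Of 10 tested genes derived from mobile elements 4 rose (40%, beside 13.4% of all tested genes) and 1 fell (10%, beside 13.1%), with a median of 0.02. PGBD1, derived from a piggyBac transposase, was at 2.53, 1.11 and 2.33 CPM in WT and 11.9, 11.9 and 12.6 CPM in K513R (log2 2.54 ± 0.37, edgeR adjusted p = 0.000111), and PGBD5 rose by 1.41. PGBD4 (0.96) and RTL6 (0.63) also passed, but the call of PGBD4 ended with any 1 library left out and that of RTL6 with any but K513R replicate 1 (edgeR adjusted p up to 0.183 and 0.115). PEG10, a retrotransposon-derived gene, was at 415, 405 and 379 CPM in WT and 162, 217 and 223 CPM in K513R (log2 -1.003 ± 0.11, edgeR adjusted p = 1.05e-05). In shared peaks only PEG10 was at -0.48 (edgeR adjusted p = 0.0614).

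On the list of factors that silence such elements 4 of 27 members rose (14.8%, near the 13.4% of all tested genes) and 8 fell (29.6%, beside 13.1%), with a median of -0.16. The rises were SAMHD1 (1.71), a nucleotide hydrolase, ZC3HAV1 (1.54), ADAR (0.80) and MORC2 (0.51), of which ZC3HAV1 and ADAR are counted above too. The falls included the heterochromatin proteins CBX3 (-0.89) and CBX5 (-0.62) and the HUSH complex genes TASOR (-0.34) and MPHOSPH8 (-0.30). The maintenance methyltransferase DNMT1 fell by 0.59 on the log2 scale, but in peaks of at most 10 kb it was at 0.02 (edgeR adjusted p = 0.927). Without WT replicate 2 or K513R replicate 2 only 3 of the list fell, and without K513R replicate 1 9 did. The call of MORC2 ended with any library but K513R replicate 1 left out (edgeR adjusted p up to 0.187). Of 24 KRAB zinc finger genes, which target mobile elements, 0 rose and 1 (ZNF33B, -0.42) fell (4.17%), and ZNF33B lost its call without any 1 of the WT libraries or K513R replicate 2.

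Outside the interferon list, RAB27B and ANKRD1 were among the 10 largest named rises. RAB27B, a small GTPase of vesicle secretion, was at 18, 16.6 and 20.1 CPM in WT and 137, 163 and 138 CPM in K513R (log2 2.99 ± 0.14, edgeR adjusted p = 3.47e-10), with 59% of its counts over opposite-strand exons. ANKRD1, a target of the YAP coactivator, was at 6.01, 6.65 and 7.29 CPM in WT and 65.8, 44.4 and 48.6 CPM in K513R (log2 3.00 ± 0.22, edgeR adjusted p = 7.11e-08). LAMB3, a laminin chain of the epithelial basement membrane, was at 37.3, 34 and 34.1 CPM in WT and 160.4, 175 and 176 CPM in K513R (log2 2.27 ± 0.12, edgeR adjusted p = 9.84e-10). The groups were far apart for these 3 genes. Peaks of the K513R list alone held 88.2% of ANKRD1 counts, and peaks of the WT list alone held 99.3% of LAMB3 counts. COL17A1, a hemidesmosome collagen, was at 0.316, 0.370 and 0.875 CPM in WT (1 to 3 counts per library) and 7.19, 12.4 and 13.8 CPM in K513R (edgeR adjusted p = 2.84e-05). Of the 40 genes that rose by at least 2, 16 were on no list. They included the gap junction gene GJB5 (3.17), the cytokine receptor IL7R (3.62), the hyaluronan synthase HAS2 (2.19), and HELZ2 (2.36), PARP10 (2.33), TRIM21 (2.35) and APOL6 (2.13), named after their values were seen.

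Of 21 YAP and TEAD targets 8 rose (38.1%, beside 13.4% of all tested genes) and 0 fell (beside 13.1%), with a median of 0.29. Besides ANKRD1 these included TGFB2 (1.28), a secreted growth factor, F3 (1.06), the tissue factor, and YAP1 itself (0.71), whose counts all lay over opposite-strand exons. Without WT replicate 3 or K513R replicate 2, 5 rose. On the adhesion and basement membrane list 5 of 15 rose (33.3%) and 2 fell (13.3%, near the overall share), with a median of 0.21. The integrin chain ITGA3 (1.24) and the heparan sulfate proteoglycan AGRN (1.28, with 60.7% of counts in peaks shared with another gene) rose with LAMB3 and COL17A1, ITGA5 (0.83) lost its call with any library but K513R replicate 1 left out, and the integrin chain ITGB1 (-0.84) and the laminin chain LAMB1 (-0.73) fell.

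Of 10 NF-kB feedback genes 3 rose (30%, beside 13.4% of all tested genes) and 0 fell (beside 13.1%), with a median of 0.59. The deubiquitinase TNFAIP3 (A20) was at 12.3, 15.2 and 16 CPM in WT and 38.8, 48.2 and 43.8 CPM in K513R (log2 1.57 ± 0.19, edgeR adjusted p = 1.85e-05), with no overlap. BIRC2 (0.87) and RIPK2 (0.94) rose too, the latter with an edgeR adjusted p of 0.0547 without WT replicate 2. Of 26 immediate early and AP-1 genes 7 rose (26.9%) and 1 fell (3.85%), with a median of 0.28. The transcription factor EGR1 was at 9.81, 15.9 and 13.1 CPM in WT and 43.1, 37.9 and 27.6 CPM in K513R (log2 1.51 ± 0.23, edgeR adjusted p = 0.000144), and BTG1 (0.94), MCL1 (0.78) and ZFP36L1 (0.70) rose, while JUN fell by 0.80 on the log2 scale. Of 16 Wnt targets 6 rose (37.5%) and 0 fell (median 0.33): APCDD1 (0.99), LEF1 (0.97), CCND1 (0.88), CD44 (0.82), RNF43 (0.79) and BMP4 (0.73). Without K513R replicate 1, 3 Wnt targets fell.

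METTL3 itself was at 86.4, 82.8 and 82.8 CPM in WT and 74.1, 78.5 and 79.8 CPM in K513R (log2 -0.12 ± 0.12, edgeR adjusted p = 0.495). Every K513R library was a little below every WT library, but the difference did not pass. Peaks of the WT list alone held 85.6% of METTL3 counts, and in shared peaks only METTL3 was at 0.15. Counts per gene cannot show the amino acid change. In RNA-seq METTL3 was higher in K513R (log2 0.41, edgeR adjusted p = 0.00116). Of the writer complex 3 of 11 rose (27.3%, beside 13.4% of all tested genes) and 1 fell (9.09%, beside 13.1%), with a median of 0.15. METTL14 was at 24.7, 21.1 and 28.6 CPM in WT and 40.6, 43.3 and 38.4 CPM in K513R (log2 0.71 ± 0.17, edgeR adjusted p = 0.00625). WTAP was at 119, 114 and 115 CPM in WT and 172, 212 and 189 CPM in K513R (log2 0.71 ± 0.11, edgeR adjusted p = 0.000161), with 70.6% of counts over opposite-strand exons. RBM15B, an adaptor of the complex, rose by 0.70. METTL5, which methylates ribosomal RNA, fell by 0.83, and 100% of its counts lay over opposite-strand exons. ZC3H13 (-0.17), VIRMA (0.12) and METTL16 (0.15) did not pass.

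Of 13 readers and erasers 4 rose (30.8%, beside 13.4% of all tested genes) and 1 fell (7.69%, beside 13.1%), with a median of 0.04. The cytoplasmic reader YTHDF2 rose from 116 ± 4.80 to 192 ± 20.1 CPM (log2 0.73 ± 0.11, edgeR adjusted p = 0.000145), and YTHDF1 (0.69), the nuclear reader YTHDC1 (0.59) and the eraser ALKBH5 (0.57) rose, while HNRNPC fell by 0.50. YTHDC1 lost its call in peaks of at most 10 kb. Of 16 SETD1 and COMPASS genes, which methylate histone H3 at lysine 4, 2 rose (12.5%) and 3 fell (18.8%), with a median of -0.08. SETD1A was at 32.6, 29.9 and 29.2 CPM in WT and 41.3, 35.2 and 34.2 CPM in K513R (log2 0.29 ± 0.17, edgeR adjusted p = 0.222). KMT2B (0.37) and KMT2D (0.30) rose, the first without a call when WT replicate 1 or 3 was left out and the second when any library but K513R replicate 1 was. PSIP1, a chromatin reader, was at 2632, 2962 and 2780.2 CPM in WT and 1766, 1266 and 1172 CPM in K513R (log2 -0.99 ± 0.13, edgeR adjusted p = 3.04e-05). WDR82 (-0.75, with 73.8% of counts over opposite-strand exons) and DPY30 (-0.47) fell, the latter with a call only in the full set and without WT replicate 1 among fits that left out a library.

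The falls were smaller and spread over abundant genes. CHCHD10, a mitochondrial intermembrane protein, was at 107, 168 and 108 CPM in WT and 48.9, 15.2 and 24.6 CPM in K513R (log2 -2.02 ± 0.37, edgeR adjusted p = 0.00653), with 98.9% of its counts over opposite-strand exons. The ubiquitin-conjugating enzyme UBE2K was at 57.0, 72.4 and 63.6 CPM in WT and 32.7, 10.8 and 13.2 CPM in K513R (log2 -1.66 ± 0.28, edgeR adjusted p = 0.000993). With peaks taken from the K513R list first, UBE2K was at -0.66 (edgeR adjusted p = 0.12). H2AZ2, a variant of histone H2A, was at 76.9, 100.1 and 72.3 CPM in WT and 32.0, 29.8 and 21 CPM in K513R (log2 -1.56 ± 0.18, edgeR adjusted p = 1.05e-05). K513R replicate 1 was the highest K513R library for all 3 genes and still below WT. The other large falls were PCLO (-1.57), a presynaptic scaffold, RPS4X (-1.49), SAP30 (-1.49), a corepressor subunit, CMSS1 (-1.39, all counts over opposite-strand exons), EIF2B4 (-1.38), KHDRBS3 (-1.38) and ATP5IF1 (-1.38), whose call ended without K513R replicate 2 (edgeR adjusted p = 0.0605). Counts lay in peaks of the K513R list alone for EIF2B4 (99.3%), KHDRBS3 (100%) and ATP5IF1 (100%). They lay in peaks of the WT list alone for CHCHD10 (98.9%), H2AZ2, SAP30 and CMSS1 (100% each). Of all genes measured only in peaks of the K513R list alone 29.1% fell, and of those only in peaks of the WT list alone 6.40% fell. The secretogranin gene SCG2, whose mean over the 6 libraries was under 20 CPM, fell from 21.3 ± 1.07 to 2.38 ± 1.62 CPM (log2 -3.06 ± 0.36, edgeR adjusted p = 1.29e-05), and was named after its value was seen.

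Ribosomal protein genes fell together: 19 of 28 tested members fell and 0 rose, beside 13.1% of all tested genes that fell, with a median of -0.64. RPS4X, a small subunit protein encoded on the X chromosome, was at 249.6, 325 and 252 CPM in WT and 120.5, 86.6 and 82.2 CPM in K513R (log2 -1.49 ± 0.14, edgeR adjusted p = 1.89e-06). RPL8 (-1.13), RPL6 (-1.10), RPS6 (-0.93), RPL4 (-0.87) and RPL3 (-0.62) fell too. Members that did not pass ranged from RPL22 (-0.39) to RPS23 (0.45). With 1 library left out 16 to 20 fell. Of the 60 genes on the list 37 had counts in a peak. RPL37, which was called, lost its call without any 1 of the WT libraries or K513R replicate 2.

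**Figure D4:**
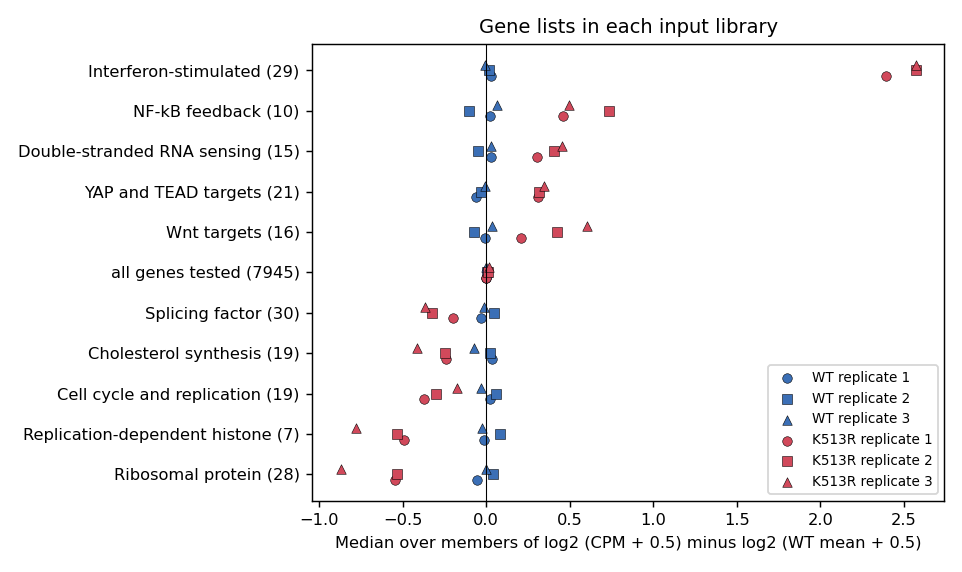
Median over the tested members of each list of the log2 level in a library (CPM plus 0.5) minus that of the WT mean, 1 point per input library. The interferon-stimulated list lies at 2.39, 2.57 and 2.57 in K513R replicates 1, 2 and 3 and the ribosomal protein list at -0.55, -0.54 and -0.87, while all 7945 genes together lie near 0 in every library.

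Of 30 splicing factors 13 fell (43.3%, beside 13.1% of all tested genes) and 1 (HNRNPF, 0.37) rose (3.33%, beside 13.4%), with a median of -0.27. HNRNPD (AUF1), which also binds AU-rich elements, fell from 1910.1 ± 53.6 to 1105 ± 171 CPM (log2 -0.79 ± 0.11, edgeR adjusted p = 5.14e-05), HNRNPM by 0.85 and HNRNPH1 by 0.72. HNRNPM lost its call in peaks of at most 10 kb, and 92.5% of its counts lay over opposite-strand exons. The number of splicing factors that fell was 18 without K513R replicate 1, 9 without WT replicate 2 or K513R replicate 2, and 9 with library size only. HNRNPA2B1, the most abundant member, was at -0.02 and changed sign under several alternatives (0.10 when scaled by library size alone). Of 31 mRNA decay genes 7 fell (22.6%) and 2 rose (6.45%), with a median of -0.17, with falls of the helicase DDX6 (0.77 on the log2 scale) and of the deadenylation scaffold CNOT1 (0.72) and rises of DIS3L (0.71) and SMG5 (0.68). SMG5 had an edgeR adjusted p of 0.0543 without K513R replicate 2. The decay falls numbered 4, a share near the 13.1% of all tested genes, without WT replicate 1, WT replicate 2 or K513R replicate 3 and with library size only.

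Of 19 cell cycle and replication genes 8 fell (42.1%, beside 13.1% of all tested genes) and 3 rose (15.8%, beside 13.4%), with a median of -0.31. Topoisomerase TOP2A was at 1026, 1168 and 1009 CPM in WT and 764, 639 and 571 CPM in K513R (log2 -0.69 ± 0.11, edgeR adjusted p = 0.000185). CCNE2 (-0.87), RRM1 (-0.73), BUB1 (-0.68), BUB1B (-0.59), MCM4 (-0.57), MKI67 (-0.57) and MCM7 (-0.43) fell, the call of MKI67 with an edgeR adjusted p of 0.0514 without K513R replicate 2. With peaks taken from the K513R list first, RRM1 was at -0.49 (edgeR adjusted p = 0.0757). CCND1 (0.88), MCM3 (0.42) and CDC25A (0.49) rose, and only 1 of the 3 did without WT replicate 1, when MCM3 and CDC25A lost their calls. CDC25A also lost its call without WT replicate 2 or K513R replicate 2 or 3. Of 7 tested E2F, pocket protein and MuvB genes 3 fell (42.9%) and 0 rose (median -0.43): the repressor E2F8 (-1.28), the MuvB subunit LIN54 (-0.79) and MYBL2 (-0.43), the last with an edgeR adjusted p of 0.0569 without WT replicate 3. E2F4 had 1 to 4 counts per library and was not tested. Of 7 replication-dependent histone genes, whose messages mostly lack a poly(A) tail, 4 fell (57.1%) and 0 rose (median -0.56): H2BC15 (-1.10), H1-5 (-0.59), H4C3 (-0.56) and H4C8 (-0.54). H4C3 lost its call without any 1 of the WT libraries or K513R replicate 3, and all counts of H4C8 lay over opposite-strand exons. All counts of H1-5 lay in a peak of the K513R list alone, and 29.1% of genes measured only in such peaks fell. With WT peaks only, 3 histone genes of the list were tested and 2 fell.

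Of 19 tested sterol synthesis genes 7 fell (36.8%, beside 13.1% of all tested genes) and 2 rose (10.5%, below the 13.4% of all tested genes), with a median of -0.24. The isomerase IDI1 (-1.05), the reductase TM7SF2 (-0.96), the sterol sensor INSIG1 (-0.91), the synthase HMGCS1 (-0.63) and the desaturase SCD (-0.54) were among the falls. The reductase DHCR7 (0.61, with 47.6% of counts over opposite-strand exons) rose, and it was not called without K513R replicate 2 (edgeR adjusted p = 0.0563), when 0 members of the list rose.

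Of 18 integrated stress response genes 5 rose (27.8%, beside 13.4% of all tested genes) and 2 fell (11.1%, beside 13.1%), with a median of 0.19, led by SLC3A2 (1.04), a subunit of amino acid transporters, and NUPR1 (1.14), whose edgeR adjusted p was 0.0728 without WT replicate 1. CEBPG (0.57), PPP1R15A (0.47) and SLC7A5 (0.34) rose, SLC7A11 (-0.60) and JDP2 (-0.51) fell, and SLC7A5 lost its call in 11 of 21 alternatives. SLC7A5 and JDP2 were called with no library but K513R replicate 1 left out, and SLC7A11 was not called without WT replicate 1 or 2 or K513R replicate 2. Without WT replicate 1 3 rose and 0 fell. Of 15 unfolded protein response genes 1 rose (CALR, 6.67% of the list) and 2 fell (DNAJB11, -0.47, and HSP90B1, -0.38, 13.3% of the list), with a median of 0.08. HSP90B1, with 74.4% of counts in a peak shared with MIR3652, was not called without WT replicate 2 or 3 or K513R replicate 2 or 3. Of 15 hypoxia and glycolysis genes 1 rose (PKM, 0.31, lost with any library but K513R replicate 1 left out) and 0 fell (median 0.05). Of 13 p53 targets 3 rose (23.1%) and 1 fell (7.69%), with a median of -0.05: PHLDA3 (1.36), PMAIP1 (0.57), AEN (0.44) and FBXW7 (-0.75). PMAIP1 and AEN were not called without WT replicate 1 or 3, and AEN also not without WT replicate 2 or K513R replicate 2.

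A gene's input counts can also shift between its peaks. Of 3697 genes with at least 2 tested peaks 46 (1.24%) did so (edgeR diffSpliceDGE, Simes adjusted p under 0.05), and of 1277 called genes with several tested peaks 1006 (78.8%) had every peak in the direction of the gene. IFIT1 had the smallest p. Its peak at chr10:89405527-89406008 was at 9.91, 11.5 and 13 CPM in WT and 20.8, 25.9 and 16.4 CPM in K513R (log2 0.87), while its other 3 peaks rose by 3.65 to 3.87 (Simes adjusted p = 2.69e-07). In EIF3G, a translation initiation factor subunit, the peak at chr19:10115013-10115699 rose from 10.9, 12.2 and 12.4 to 28.1, 36.9 and 30.9 CPM, while the larger peak at chr19:10119072-10119680 fell from 295, 260 and 300 to 222, 214 and 242 CPM (Simes adjusted p = 6.26e-05). The rising peak is in the WT list and the falling one in the K513R list alone. In DYNLL1 too the peak of the WT list rose (log2 0.72) and the peak of the K513R list alone fell (-0.37). In EZR, the membrane linker ezrin, the peak at chr6:158766636-158767055 fell from 425, 502 and 422 to 312, 209 and 193 CPM, and K513R replicate 1 lay between (Simes adjusted p = 6.26e-05). BRWD1, DYNLL1 and FOXK2 followed (Simes adjusted p = 0.00971, 0.0119 and 0.0119). The number of such genes was 3, 4 and 4 without WT replicates 2, 1 and 3, 4 and 9 without K513R replicates 2 and 3, and 339 without K513R replicate 1. IFIT1, EIF3G and EZR were called in each of those fits, but among peaks that averaged 20 CPM or more IFIT1 had a Simes adjusted p of 0.999. Among fits with 1 library left out, DYNLL1 and FOXK2 were called only in the one without K513R replicate 1, and BRWD1 lost its call without WT replicate 2 or 3 or K513R replicate 2.

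The RNA-seq libraries of the same genotypes gave another picture for many of these genes. The genotype difference differed between inputs and RNA-seq at 5048 of 7945 genes (63.5%, edgeR assay by genotype term), 2626 higher and 2422 lower in the inputs. That term scales RNA-seq over the genes tested in the inputs, whose median in the RNA-seq fit of 30377 genes was -0.47, so it lies 0.47 below the difference of the fold changes printed here. With RNA-seq scaled as in its own fit, the term was called for 5268 genes (66.3%), 3776 higher and 1492 lower in the inputs, so the split rests on the scaling. By its own fit RNA-seq called 84.1% of 7924 genes. Of 2103 genes called in the inputs and tested in RNA-seq, 1361 were called in RNA-seq, as scaled in its own fit, with the same sign and 463 with the opposite one. Across 7924 genes the log2 fold changes had a Pearson r of 0.31 and a Spearman rho of 0.32, as a description of genes that share libraries. The median absolute change was 0.32 in the inputs and 0.95 in RNA-seq. The RNA preparations differed (poly(A) capture against rRNA depletion), as did what was counted (peaks against whole genes), and their parts in the difference were not tested.

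On the interferon-stimulated list RNA-seq had 20 members higher, 5 lower and a median of 1.05, and the assay by genotype term was called for 23 of 29 (24 with RNA-seq scaled as in its own fit). IFI44L rose by 1.70 in RNA-seq against 6.53 in the inputs, and IFIT3 by 1.32 against 4.90. MX1 was at means of 77.8 and 79.3 CPM in RNA-seq (log2 0.03, edgeR adjusted p = 0.83), ISG15 at 24.3 and 24.7 CPM (0.02) and XAF1 at 4.36 and 3.94 CPM (-0.15), although all 3 rose in the inputs. IFI6 rose in both (4.14 and 4.50), as did NT5E (3.93 and 3.94) and OASL (3.39 and 5.02). METTL14 (-0.87) and ANKRD1 (-1.63) were lower in RNA-seq and higher in the inputs. METTL3 was higher in RNA-seq (0.41) and not called in the inputs (-0.12), with an assay by genotype term of -0.99 (edgeR adjusted p = 5.5e-06). For ribosomal protein genes the directions were alike, with 18 lower and 4 higher and a median of -0.97 in RNA-seq. For Wnt targets they were not: 14 of 16 were lower in RNA-seq (median -1.34), and APCDD1 was at -2.96 there against 0.99 in the inputs. These counts stand beside 84.1% of all genes called in RNA-seq and a median of -0.47. Lower members prevailed there in other lists too, with 26 lower and 2 higher of 30 splicing factors and 18 lower and 0 higher of 19 cell cycle and replication genes. Low RNA-seq values were thus not particular to the ribosomal protein and Wnt lists.

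**Figure D5:**
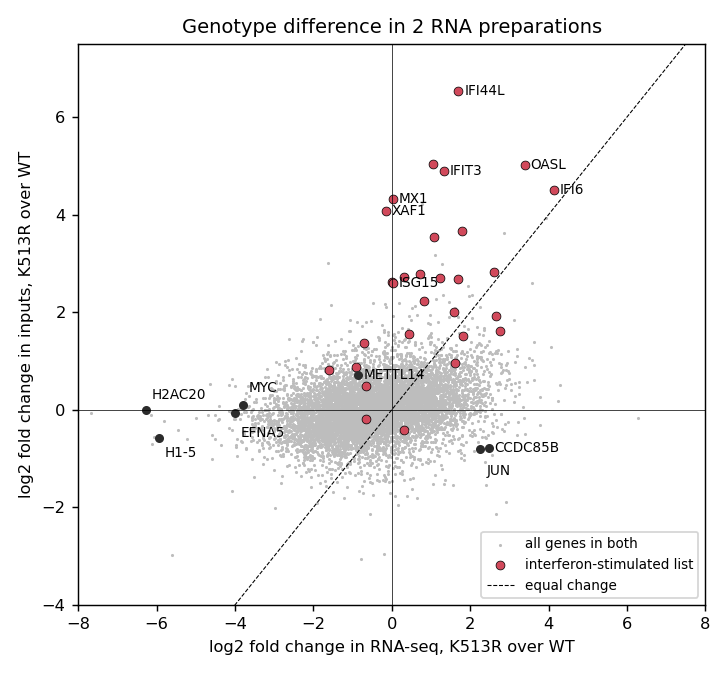
log2 fold change of K513R over WT in RNA-seq (horizontal) against the inputs (vertical) for 7924 genes, with the interferon-stimulated list in red and equal change dashed. MX1, ISG15 and XAF1 lie near 0 on the horizontal axis and at 4.32, 2.59 and 4.07 on the vertical one, and IFI6 lies near the dashed line.

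Calls moved with the peak list that gave a gene its counts. Of 227 tested genes measured only in peaks found in the K513R list alone, 4 rose (1.76%) and 66 fell (29.1%, median -0.37). Of 1391 genes measured only in peaks of the WT list alone, 145 rose (10.4%) and 89 fell (6.40%, median 0.10), and of 1560 measured only in peaks of both lists 219 rose and 241 fell (median -0.01). The share of input counts in WT-only peaks was 12.3% ± 0.317 in WT and 13.6% ± 0.503 in K513R, and in K513R-only peaks 13.1% ± 0.219 and 11.9% ± 0.310 (exact permutation test, two-sided, n = 3 each, p = 0.1, the smallest it allows). The part of peak calling in these differences was not tested. By chromosome, the X had 4.66% of 193 genes higher and 17.1% lower, and chromosome 22 had 18.4% of 185 higher and 5.95% lower.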

How the data were processed

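The deposited input values are read counts per m6A peak; per the submitters' processing notes, reads were trimmed with Trimmomatic 0.36 and counted with featureCounts of Subread 1.5.1 on GRCh38. Neither the labels nor the headers read here name an aligner or a peak caller. The library kit carried molecular identifiers, per the labels' protocols. Peak counts were summed per gene, filtered by edgeR's filterByExpr, scaled by TMM and tested between genotypes by the robust quasi-likelihood test (edgeR 4.0.16, R 4.3.3) with Benjamini-Hochberg adjustment at 0.05. The same test was run on the deposited RNA-seq counts per gene, with an assay by genotype term over both, scaled within each assay over the genes tested in the inputs. Peak use was tested with diffSpliceDGE. The code was tested on simulated counts with 200 changed genes. Alternatives were other scalings, filters, DESeq2 1.42.0, limma-voom 3.58.1, a replicate block, thinned libraries, other peak sets and each library left out. Peaks shared by both lists, peaks of at most 10 kb, the longest of overlapping peaks, and RNA-seq scaled over all its tested genes were chosen after seeing the data. Pull-down columns were not used.

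Genes named are the 10 largest rises and 10 largest falls among called genes that averaged 20 CPM or more and whose groups did not overlap, called members of 29 lists, and the top 6 genes for peak use and for the assay term. Others are named as examples. The comparison and lists were chosen with earlier results of these data known. Some genes are not reported here.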

Additional observations from a re-analysis of the deposited data

Results flagged for a closer look

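The genotype difference differed between inputs and RNA-seq, by the edgeR assay by genotype term, with the smallest adjusted p at 6 genes. RNA-seq is scaled in that term over the genes tested in the inputs, which puts it 0.47 below the plain difference of the fold changes in brackets, each from its own fit. The term was 5.80 for the histone gene H2AC20 (inputs 0.00, RNA-seq -6.27) and 4.88 for the linker histone H1-5 (-0.59 and -5.94). It was 3.46 for the ephrin ligand EFNA5 (-0.07 and -4.004) and 3.43 for the transcription factor MYC (0.10 and -3.80). It was -3.73 for CCDC85B (-0.79 and 2.47) and -3.53 for the AP-1 subunit JUN (-0.80 and 2.26). With RNA-seq scaled over all its tested genes the terms were 6.27, 5.35, 3.93, 3.90, -3.26 and -3.07 in the same order, and all 6 were called. The edgeR adjusted p as first scaled was 3.18e-15 for H2AC20, 7.3e-13 for CCDC85B and 1.08e-12 for the other 4. H2AC20 levels in the inputs were 119.6 ± 1.94 CPM in WT and 120.0 ± 7.35 CPM in K513R (SD, 3 libraries each). The assays differed in RNA preparation and in what was counted, and the part of either was not tested.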

How the results depend on the processing

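The counts of called genes were within 1.5 times those reported under DESeq2 (813 higher, 909 lower), limma-voom (1042, 1048) and a mean of at least 20 CPM (965, 904). They ranged from 665 to 1247 higher and from 663 to 1392 lower with 1 library left out. Replicate numbers did not pair the samples (correlations of deviations -0.115, -0.0452 and 0.0183), and with the replicate block 914 genes were higher, 931 were lower and 4 had changed peak use. Genes with changed peak use numbered 78 among peaks of at least 20 CPM, and 3 to 339 with 1 library left out.

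Directions reversed as follows, on the log2 scale, and the cause was not tested. With library size only, EFNA5 was at 0.041, H2AC20 at 0.115, HNRNPA2B1 at 0.10, IL32 at 0.099 and PVR at 0.033. At a mean of at least 20 CPM, H2AC20 was at 0.032 and HNRNPA2B1 at 0.017, and with the replicate block H2AC20 was at 0.00068. In WT peaks only DYNLL1 was at 0.67 and EIF3G at 1.38. From the K513R list, CD68 was at -0.40, H2AC20 at 0.018, IL32 at 0.0075, PHLDA1 at -0.21 and ZNF195 at -0.092. In thinned libraries H2AC20 was at 0.090 and IL32 at 0.25. In shared peaks only EFNA5 was at 0.0074, EIF3G at 1.43, HNRNPA2B1 at 0.0080, METTL3 at 0.15 and PDIA3 at 0.21. In peaks of at most 10 kb DNMT1 was at 0.016 and UPF2 at 0.10. With 1 library left out the ranges were -0.044 to 0.038 for H2AC20, -0.061 to 0.019 for HNRNPA2B1, -0.33 to 0.18 for IL32, -0.14 to 0.011 for PVR and -0.036 to 0.086 for ZNF195. Low counts limit genes such as COL17A1 and OASL, with 1 to 5 counts per WT library.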
